A study of Homo sapiens with 12 samples.

Results

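The 10 genes described here belong to the Hippo-YAP pathway and were followed by their Ensembl identifiers in a table of 22379 genes; all 10 were in the table and all 10 reached the mean untreated value of 10 asked of a tested gene, as did 13811 genes in all. The set was built around CCN1, which was chosen by its treated and untreated values in the knockouts, since it kept more mRNA under triptolide with NUP93 than with EXOSC5 knocked out. Its values there are therefore given as a description with no test. The cells were U2OS, a human osteosarcoma line, in 12 libraries that formed 6 groups of 2. They had received a plasmid with Cas9 and a guide, either a nontargeting control (NONT), a guide to NUP93, which encodes a scaffold protein of the nuclear pore, or a guide to EXOSC5, which encodes a core part of the exosome, a complex of RNA decay. Each genotype was left untreated or given triptolide, which blocks the XPB subunit of TFIIH and with it the start of transcription by RNA polymerase II, at 1 μM for 8 h. The knockouts were pools of transfected, puromycin-selected cells and not clones, so unedited cells may remain in them.

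In the Hippo pathway the kinases LATS1 and LATS2 phosphorylate the coactivators YAP1 and WWTR1 (TAZ), which are then held in the cytoplasm or degraded. Unphosphorylated YAP1 and WWTR1 enter the nucleus and bind DNA through TEAD factors such as TEAD1. Their best known targets include CCN1 (CYR61) and CCN2 (CTGF), which encode secreted matricellular proteins, ANKRD1, a cardiac ankyrin repeat protein, and AMOTL2, an angiomotin that in turn restrains YAP1. AJUBA is a LIM protein that restrains the LATS kinases. Triptolide is used to block new synthesis of mRNA, and neither decay nor residual synthesis was measured here.

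Values were spike-in-normalised signal, a scale set by RNAs added in proportion to cell number. Approximate depth was 8.60 M to 11.96 M reads (M, mega), with 15795 to 16523 genes above 0 in each library. The replicates of NONT were offset from each other over all genes, with a median log2 difference (the first minus the second replicate) of −0.51 untreated and 0.25 under triptolide, against −0.14 to 0.11 in the knockout groups. The targeted genes were examined for a check of the labels. NUP93 was 1753 and 2489 in untreated NONT and 1395 and 1432 in untreated NUP93-KO, and EXOSC5 was 299.4 and 481.3 in untreated NONT and 215.9 and 147.7 in untreated EXOSC5-KO, neither past the limma threshold (adjusted p = 0.926 and 0.151). Under triptolide NUP93 was 801.3 and 1019 in NUP93-KO, overlapping the 1007 and 898.7 of NONT. The treated EXOSC5-KO libraries had 75.2 and 101.5 for EXOSC5, below the 265.8 and 207.8 of NONT. The NUP93 mRNA thus does not check the label of the treated NUP93-KO libraries, and an edit need not lower the mRNA. Of 9 mesenchymal and osteoblast markers 6 reached an untreated mean of 10, VIM and COL1A1 highest, while the osteoblast genes SP7 and IBSP were listed at 0 in all untreated libraries. BGLAP, another osteoblast gene, was at most 5.68, and COL1A2 was only 10.2 to 42.0, no higher than several epithelial markers. Epithelial markers (4 of 5 reached that mean) summed to 130.03 to 225.4 and blood and endothelial markers (1 of 6) to 17.3 to 78.0, against 88665 to 144856 for the mesenchymal list. Nearly all of that last sum came from VIM, COL1A1 and SPARC. In bulk RNA, fewer cells that express a gene and less of its mRNA per cell cannot be told apart.

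Several of these genes carried TEAD letters close to their start sites. The letters GGAATG, or CATTCC on the other strand, form the core that TEAD factors are known to bind. In RefSeq promoters of GRCh38.p14, which run from 250 bases before to 50 bases after a gene start, 14.0% of 35116 windows held the letters at least once and 1.37% held 2 or more. Windows for 8 of the 10 genes were found (12 windows), with none for CCN1 and TEAD1. The letters lay in 6 of the 12 windows, which belonged to 6 genes. CCN2 held them 169, 104 and 95 bases upstream of the start, ANKRD1 220 and 128 bases upstream, and AMOTL2 69 bases upstream in 1 of its windows. YAP1 held them 162 bases upstream, and AJUBA 59 bases upstream in 1 of its windows. LATS2 held them just past the start, and none lay in the windows of WWTR1 and LATS1. The 3 target promoters are shown because their genes are the YAP targets whose loss is described next. They are CCN2 at chr6:131951323-131951622, ANKRD1 at chr10:90921038-90921337 and AMOTL2 at chr3:134374398-134374697, all on the minus strand and written 5′ to 3′ with the TEAD letters in capitals. A match is a description of the sequence and not a measured binding site.
CCN2: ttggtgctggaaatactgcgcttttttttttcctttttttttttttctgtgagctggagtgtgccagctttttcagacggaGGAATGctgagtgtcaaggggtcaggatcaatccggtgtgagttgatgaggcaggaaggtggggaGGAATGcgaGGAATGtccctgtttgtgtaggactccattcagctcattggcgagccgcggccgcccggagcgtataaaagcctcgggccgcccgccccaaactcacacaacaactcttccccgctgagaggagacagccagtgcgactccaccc
ANKRD1: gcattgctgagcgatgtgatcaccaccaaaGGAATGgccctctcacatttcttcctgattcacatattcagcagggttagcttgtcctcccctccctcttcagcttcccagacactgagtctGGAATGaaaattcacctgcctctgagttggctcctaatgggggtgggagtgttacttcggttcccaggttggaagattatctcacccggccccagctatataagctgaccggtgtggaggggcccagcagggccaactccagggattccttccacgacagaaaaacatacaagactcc
AMOTL2: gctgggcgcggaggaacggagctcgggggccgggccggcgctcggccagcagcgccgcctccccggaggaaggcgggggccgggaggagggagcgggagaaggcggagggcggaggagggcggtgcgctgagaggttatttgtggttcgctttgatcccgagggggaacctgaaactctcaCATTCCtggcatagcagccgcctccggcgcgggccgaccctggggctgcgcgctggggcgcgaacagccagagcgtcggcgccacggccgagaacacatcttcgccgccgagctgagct

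Triptolide removed most of the mRNA of the YAP targets in NONT cells. CCN1 (chromosome 1, 85580761 to 85584589, plus strand, 5 exons) was 4251 and 6258 in the untreated libraries and 22.03 and 28.4 in the treated ones. CCN2 (chromosome 6, 131948176 to 131951372, minus strand, 5 exons) went from 4418 and 6485 to 139.7 and 113. ANKRD1 (chromosome 10, 90912096 to 90921087, minus strand, 9 exons) went from 3216 and 4269 to 46.3 and 48.4. Every treated library lay far below every untreated one for these 3 genes. The log2 fold change in NONT was −7.63 ± 0.25 (SE) for CCN1, −6.26 ± 0.22 for ANKRD1 and −5.40 ± 0.20 for CCN2, with limma adjusted p of 5.9e-12, 8.55e-12 and 8.86e-12. AMOTL2 (chromosome 3, 134355347 to 134375479, minus strand, 10 exons) was 1524 and 2509 untreated and 29.5 and 50.7 treated, a log2 fold change of −5.62 ± 0.30. In NONT 0.203% of tested genes had a fold change at or below that of CCN1 on the log2(value + 1) scale, and 1.36% kept a smaller share of their untreated mean, a measure with no pseudocount. The amount kept, treated mean over untreated mean, was 0.480% for CCN1 in NONT, 1.27% for ANKRD1, 1.99% for AMOTL2 and 2.32% for CCN2, where the median tested gene kept 31.4%.

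The regulators lost less. AJUBA (chromosome 14, 22971177 to 22982551, minus strand, 8 exons) was 1951 and 2679 in untreated NONT and 197.8 and 108 after triptolide, so 6.60% was kept. LATS1 (chromosome 6, 149658153 to 149718105, minus strand, 8 exons) was 446.3 and 586.3 before and 51.4 and 42.4 after, with 9.08% kept. The paralogous kinase LATS2 (chromosome 13, 20973036 to 21061586, minus strand, 8 exons) was 868.3 and 1105 before and 386.2 and 373.1 after, with 38.5% kept. The paired kinases therefore stood on different sides of the median gene. TEAD1 (chromosome 11, 12674421 to 12944737, plus strand, 13 exons) was 3106 and 4482 before and 801.9 and 755.5 after, with 20.5% kept. Of the coactivators, YAP1 (chromosome 11, 102110447 to 102233424, plus strand, 9 exons) went from 1393 and 1926 to 526.3 and 517.8 and kept 31.5%. WWTR1 (chromosome 3, 149517235 to 149736714, minus strand, 7 exons) went from 274.9 and 504 to 67.2 and 65.9 and kept 17.1%. YAP1 thus sat at the median of all genes and WWTR1 below it.

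**Figure D1:**
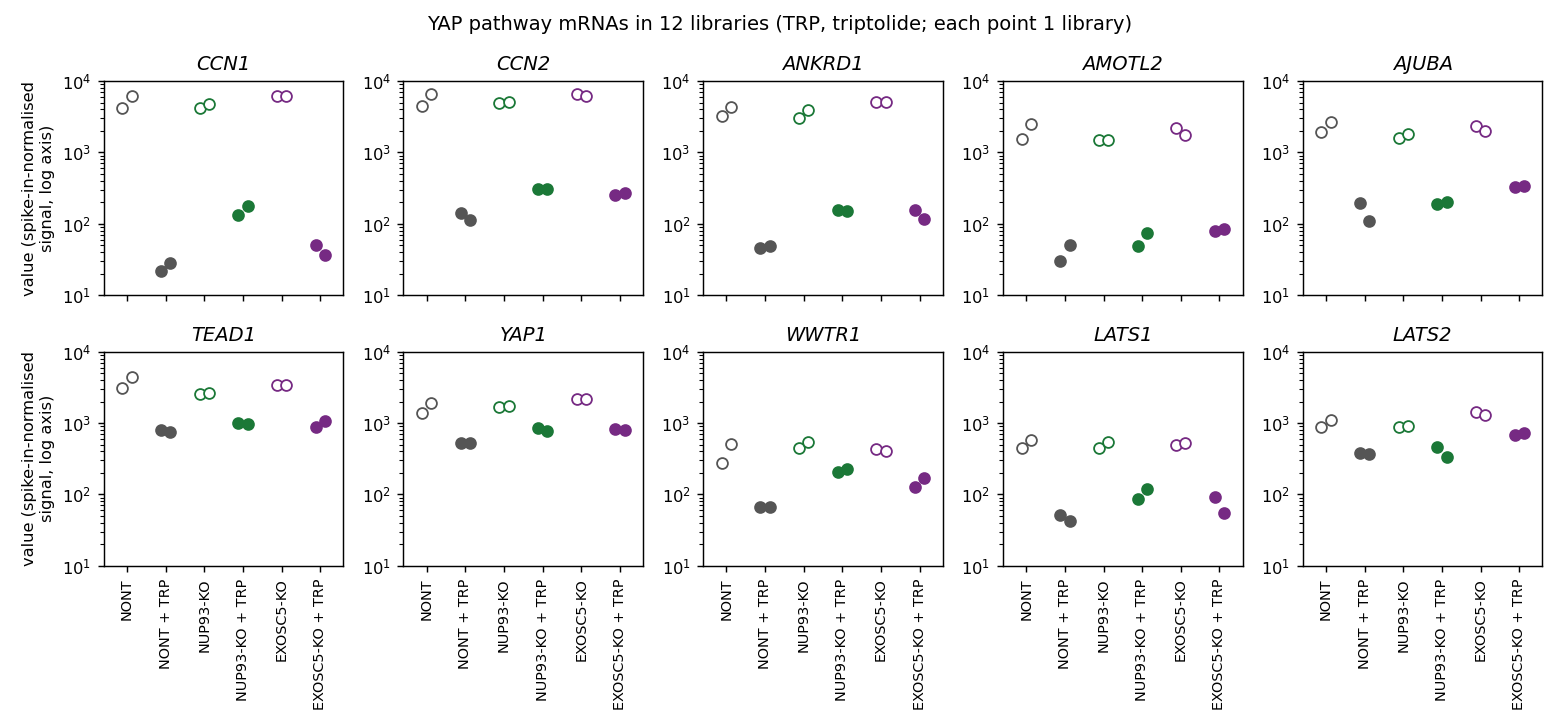
Spike-in-normalised signal of the 10 genes in each of the 12 libraries, on a log axis (TRP, 1 μM triptolide for 8 h; open points, untreated; filled points, treated; each point is 1 library). CCN1 spans 6258 to 22.03 in NONT, and its treated NUP93-KO libraries, at 130.3 and 178, lie above those of the other genotypes.

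All 10 genes fell in NONT at an adjusted p under 0.05, in a background where 90.0% of 13811 tested genes did so. The median log2 fold change was −3.69 over the 10 genes and −1.62 over all tested genes. In NUP93-KO, 9 of the 9 genes other than CCN1 fell (55.1% of all tested genes) with a median of −2.26 against −0.92. In EXOSC5-KO, 9 of 9 fell (64.3% of all tested genes) with a median of −2.71 against −1.08. With every library scaled to the same total, which removes the shared loss, 9 of 10 were lower in NONT, 9 of 9 with the NUP93 guide and 8 of 9 with the EXOSC5 guide, in backgrounds of 38.2%, 39.3% and 36.7%. With scaling by median of ratios the counts were 8, 6 and 7 (30.5%, 30.0% and 28.9% of all genes), and LATS2 turned to log2 fold changes of 0.27 in NONT and 0.10 in EXOSC5-KO.

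CCN1 kept the smallest share of the 10 genes in every genotype, and its share in NUP93-KO lay above that in the others. CCN1 was 4228 and 4734 in untreated and 130.3 and 178 in treated NUP93-KO, and 6159 and 6128 in untreated and 50.9 and 36.0 in treated EXOSC5-KO. The treated means were 154.1 ± 33.8 (SD, n = 2) in NUP93-KO, 43.4 ± 10.5 in EXOSC5-KO and 25.2 ± 4.51 in NONT. CCN1 therefore kept 3.44% in NUP93-KO (2.75% to 4.21% over the 4 treated-untreated pairs of libraries), 0.707% in EXOSC5-KO (0.584% to 0.830%) and 0.480% in NONT (0.352% to 0.668%). These values chose the gene and carry no test. In NUP93-KO the CCN1 range overlapped those of AMOTL2 (from 3.29%) and ANKRD1 (from 3.83%), so its lowest place there is not settled by these libraries. The treated CCN1 values came from about 37 and 58 reads in NONT, 54 and 44 in EXOSC5-KO and 149 and 178 in NUP93-KO. Measured from the median tested gene of its own genotype, the log2 fold change of CCN1 was −6.01 in NONT and −6.06 in EXOSC5-KO, but −3.95 in NUP93-KO. The log2 difference of treated NUP93-KO minus treated EXOSC5-KO was 1.81 for CCN1 (1.34 to 2.28 over pairings), and 99.1% of tested genes had a difference at or below it. The gene was chosen on this contrast, so that rank is no separate result.

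The other targets kept more in both knockouts than in NONT. CCN2 kept 6.13% in NUP93-KO and 4.13% in EXOSC5-KO, ANKRD1 4.40% and 2.67%, and AMOTL2 4.12% in each. The pairs of libraries overlapped between NUP93-KO and NONT for AMOTL2, from 3.29% upward against up to 3.32%. Of the regulators given next, LATS2 overlapped NONT in NUP93-KO, from 36.3% upward against up to 44.5%. In EXOSC5-KO the overlaps with NONT were LATS1 (from 10.2% against up to 11.5%) and YAP1 (from 36.7% against up to 37.8%). Among the regulators AJUBA kept 11.6% and 15.2%, LATS1 20.9% and 14.1%, TEAD1 37.9% and 29.0%, YAP1 46.4% and 37.2%, WWTR1 43.8% and 35.4% and LATS2 44.6% and 51.0%. The median tested gene kept 52.5% in NUP93-KO and 47.2% in EXOSC5-KO, so LATS2 was above it in EXOSC5-KO, as in NONT, and below it in NUP93-KO.

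CCN1 was chosen on the comparison of the knockouts, so the other 9 genes are set beside it there only as a description. The treated NUP93-KO minus EXOSC5-KO difference was 0.55 for WWTR1, 0.53 for LATS1, 0.22 for CCN2 and 0.20 for ANKRD1. It was near 0 for TEAD1 (0.01) and YAP1 (−0.03) and below 0 for AMOTL2 (−0.44), AJUBA (−0.76) and LATS2 (−0.82). The libraries of the knockouts did not overlap for CCN1, CCN2 and WWTR1 (NUP93-KO higher, as for 28.4% of all tested genes) and for AMOTL2, AJUBA and LATS2 (NUP93-KO lower, as for 22.2%). CCN1 and CCN2, paralogs with near-equal untreated levels per length, had differences of 1.81 and 0.22, the first of which was selected for.

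**Figure D2:**
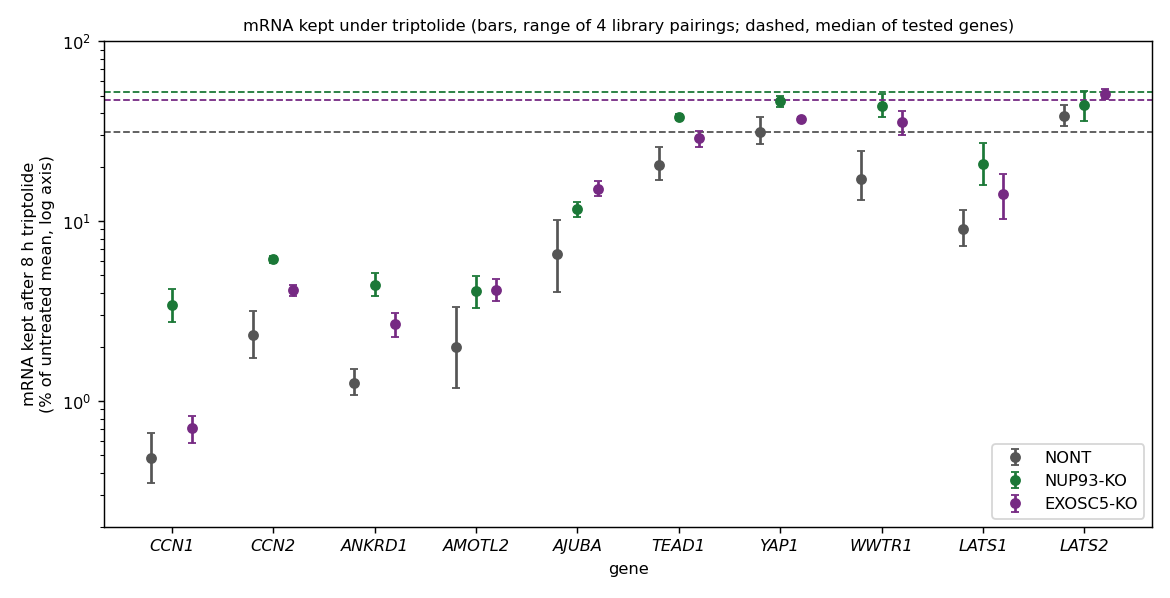
Percent of the untreated mean kept after triptolide for each gene and genotype, on a log axis (points, ratio of group means; bars, range over the 4 treated-untreated pairs of libraries; dashed lines, median tested gene of the same colour). CCN1 goes from 0.480% in NONT and 0.707% in EXOSC5-KO to 3.44% in NUP93-KO, while LATS2 keeps 38.5% to 51.0%.

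Without triptolide none of the 9 tested genes passed the threshold in either knockout. The limma count was 0 of 9 in NUP93-KO (0.0145% of all tested genes were higher and 0.00724% lower) and 0 of 9 in EXOSC5-KO (0.485% and 0.0362%). At an unadjusted p under 0.05, 1 of the 9 was lower in NUP93-KO (2.45% of all tested genes) and 2 were higher in EXOSC5-KO (6.03%). The untreated values of AMOTL2 were 1495 and 1480 in NUP93-KO, just below the 1524 and 2509 of NONT, and those of EXOSC5-KO (2229 and 1742) lay between them. YAP1 was 2185 and 2206 in EXOSC5-KO, above the 1393 and 1926 of NONT, and 1691 and 1760 in NUP93-KO. Without the second untreated NONT library YAP1 was called higher in EXOSC5-KO, and with the same mitochondrial sum in every library TEAD1 was called lower there (5.21% of all tested genes).

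Under triptolide, several genes were higher in the knockouts than in NONT, and 3 of them stayed higher in NUP93-KO on every scale tried. In NUP93-KO 5 of 9 were higher (41.9% of all tested genes), and in EXOSC5-KO 7 of 9 (39.2%). Both comparisons use the same NONT libraries. All tested genes had a median log2 difference of 0.66 and 0.65 in these comparisons. ANKRD1 was 157.1 and 149.2 in treated NUP93-KO and 155.5 and 114.5 in treated EXOSC5-KO, against 46.3 and 48.4 in NONT. Its log2 difference was 1.67 ± 0.22 (SE) with the NUP93 guide and 1.48 ± 0.22 with the EXOSC5 guide (limma adjusted p = 0.000404 and 0.000407). CCN2 was 303.1 and 310.6 in treated NUP93-KO and 254.7 and 271.8 in treated EXOSC5-KO. Its log2 difference was 1.28 ± 0.20 and 1.06 ± 0.20 (limma adjusted p = 0.00128 and 0.00221). WWTR1 was 204.3 and 228.8 in treated NUP93-KO and 128.7 and 168.1 in treated EXOSC5-KO, with log2 differences of 1.69 ± 0.28 and 1.13 ± 0.28 (limma adjusted p = 0.00170 and 0.00803). For these 3 genes no treated knockout library overlapped NONT, which did not set them apart. With the NUP93 guide 75.6% of all tested genes lay wholly above treated NONT, as did 7 of the 10 genes. With the EXOSC5 guide the share was 75.1%, and all 10 genes did so.

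The other 6 tested genes had these values. LATS1 was called higher only in NUP93-KO (log2 difference 1.11 ± 0.30, against 0.58 ± 0.30 in EXOSC5-KO), and the difference between the knockouts was not tested. AJUBA was 328.9 and 335.8 in treated EXOSC5-KO, a log2 difference of 1.18 ± 0.25 from NONT, and 189.7 and 202.8 in treated NUP93-KO, which overlapped NONT. AMOTL2 (80.2 and 83.5) and LATS2 (671.1 and 716.7) were likewise called higher in EXOSC5-KO, by 1.06 ± 0.30 and 0.87 ± 0.21. YAP1 was called in both, at 0.62 and 0.64, the size of the median gene. TEAD1 was called in neither, with 879.4 and 1076 in EXOSC5-KO and 1001 and 958.7 in NUP93-KO. The treated CCN1 difference from NONT was 2.56 in NUP93-KO, at or above that of 99.5% of tested genes, and 0.75 in EXOSC5-KO, at or above that of 59.1%. CCN1 was chosen on its values in the treated knockouts, so a high rank in NUP93-KO follows largely from the choice and is no separate result.

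With the same total per library, the median gene moved to 0.02 and 0.09 and the counts dropped to 3 of 9 in each (3.74% and 8.91% of all tested genes). In NUP93-KO these were WWTR1 (1.04 ± 0.17), ANKRD1 (1.03 ± 0.16) and CCN2 (0.63 ± 0.07), which were also called with the same mitochondrial sum (0.869% of all tested genes higher), by median of ratios (3.47%) and in each fit that left out a library. In EXOSC5-KO they were ANKRD1 (0.91 ± 0.16), AJUBA (0.61 ± 0.15) and CCN2 (0.49 ± 0.07). With the same mitochondrial sum none of the 9 was higher in EXOSC5-KO (1 at an unadjusted p under 0.05; 1.64% of all tested genes were called) and TEAD1 was lower (3.88%). By median of ratios ANKRD1, AJUBA and CCN2 were higher there (6.65%) and TEAD1 lower (7.89%), and LATS2 was lower in NUP93-KO (2.77%). Fewer of the 9 were called in NUP93-KO when its first or its second treated library was left out, and in EXOSC5-KO without its second. The same held without the second treated NONT library. In each of these fits fewer of all tested genes were called too. On the spike-in scale, leaving out 1 library gave differences in NUP93-KO of 1.60 to 1.77 for WWTR1, 1.63 to 1.71 for ANKRD1 and 1.13 to 1.43 for CCN2. In EXOSC5-KO they were 1.26 to 1.69 for ANKRD1, 0.75 to 1.61 for AJUBA and 0.91 to 1.21 for CCN2.

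**Figure D3:**
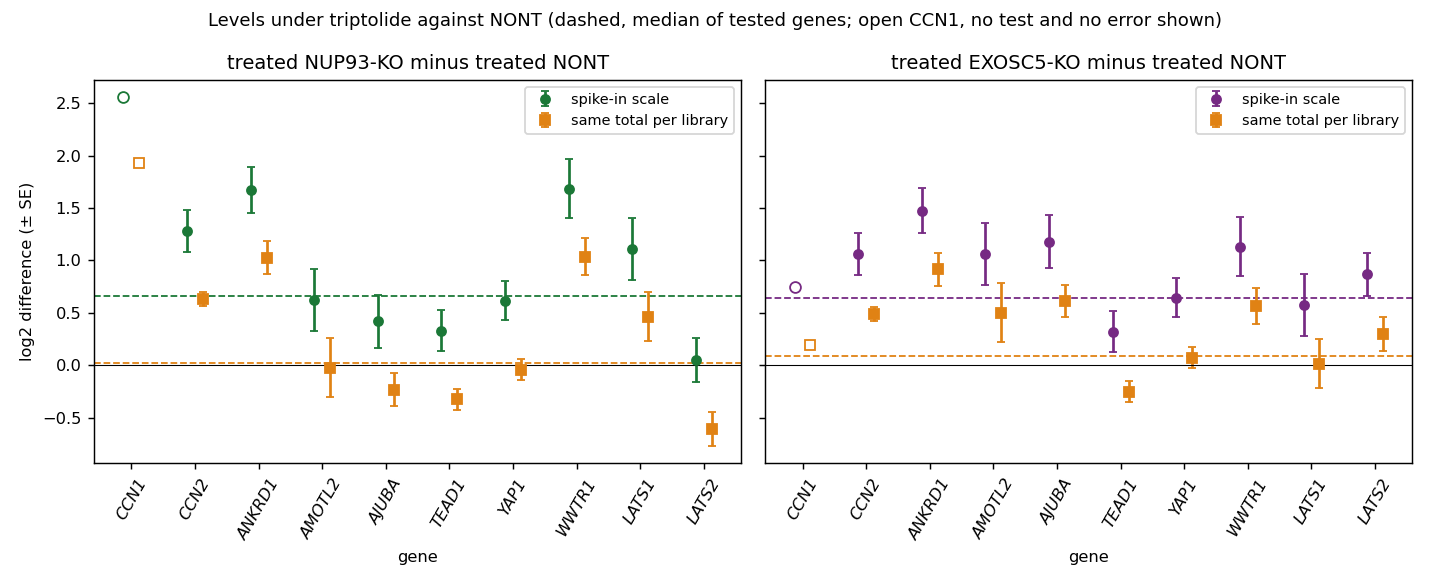
Log2 difference of each gene between treated knockout and treated NONT libraries (± SE), on the deposited spike-in scale and with the same total per library (dashed lines, median of tested genes; CCN1 is open, with no test and no error). On the same-total scale WWTR1, ANKRD1 and CCN2 stay above the median gene in NUP93-KO at 1.04, 1.03 and 0.63, and LATS2 lies below it.

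To ask whether the response itself differed, the knockout fold change was compared with that of NONT. In NUP93-KO 2 of 9 genes passed (0.760% of all tested genes were higher): ANKRD1 with a difference in response of 1.77 ± 0.31 (SE, limma adjusted p = 0.0271) and CCN2 with 1.38 ± 0.29 (adjusted p = 0.0446). The other 7 ranged from 0.18 for LATS2 to 1.28 for WWTR1, and the median tested gene was at 0.74. In EXOSC5-KO 0 of 9 passed (0.319% of all tested genes were higher), with 5 of 9 higher at an unadjusted p under 0.05, as were 23.1% of all tested genes, and differences from 0.22 for YAP1 to 1.25 for AJUBA around a median gene of 0.57. The corresponding CCN1 values were 2.76 and 0.50, with no test. Neither NUP93-KO call held with the same total, the same mitochondrial sum or median of ratios (0.0145%, 0.00724% and 0.0145% of all tested genes were higher), without the filter on low values or without the trend in limma, and the replicate block left ANKRD1 alone. The untreated NONT libraries decided the counts: without the first, 8 of 9 passed in NUP93-KO, where 51.0% of all tested genes then did, and 6 of 9 in EXOSC5-KO, where 38.2% did, and without the second none did in either. Without the first untreated NUP93-KO library none passed in NUP93-KO, and in 8 further fits that each left out a library ANKRD1 alone did. Without the first treated NONT library CCN2, ANKRD1 and AJUBA passed in NUP93-KO (18.0% of all tested genes) and AJUBA in EXOSC5-KO (2.93%).

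The wider pathway was read in 4 lists. The lists were further YAP/TAZ signature genes, further Hippo kinases and scaffolds, the remaining TEAD, VGLL and Ajuba family genes, and the remaining CCN genes. Of 17 signature genes 15 were tested, of which 15 were lower in NONT, 11 in EXOSC5-KO and 10 in NUP93-KO. The shares of all tested genes lower, against which this and the next counts are read, were 90.0%, 64.3% and 55.1%. Their median log2 fold change in NONT was −1.87 against −1.62 for all genes, −1.52 against −0.92 in NUP93-KO and −1.59 against −1.08 in EXOSC5-KO. In NONT they ranged from −5.45 for NUAK2, an AMPK-related kinase, to −0.83 for MYOF, a membrane repair protein. NUAK2 was 33.2 and 54.5 in untreated NONT and listed at 0 in both treated libraries, so its fold change depends on the pseudocount. All 15 Hippo kinases and scaffolds were lower in NONT and in EXOSC5-KO and 13 in NUP93-KO, from −3.45 for TAOK2, a kinase upstream of MST, to −0.91 for WWC2. All 7 family genes were lower in NONT, 6 in EXOSC5-KO and 5 in NUP93-KO, from −3.12 for TEAD4 to −0.98 for WTIP. Of the other 4 CCN genes CCN3 and CCN4 were tested, while CCN5 and CCN6 did not reach the untreated mean of 10. CCN3, at 262.6 and 415.1 in untreated NONT and 207.2 and 137.6 in treated NONT, fell by 0.96 on the log2 scale, and CCN4, a gene with values of 10.7 to 26.1 in these libraries, did not pass (adjusted p = 0.0599).

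**Figure D4:**
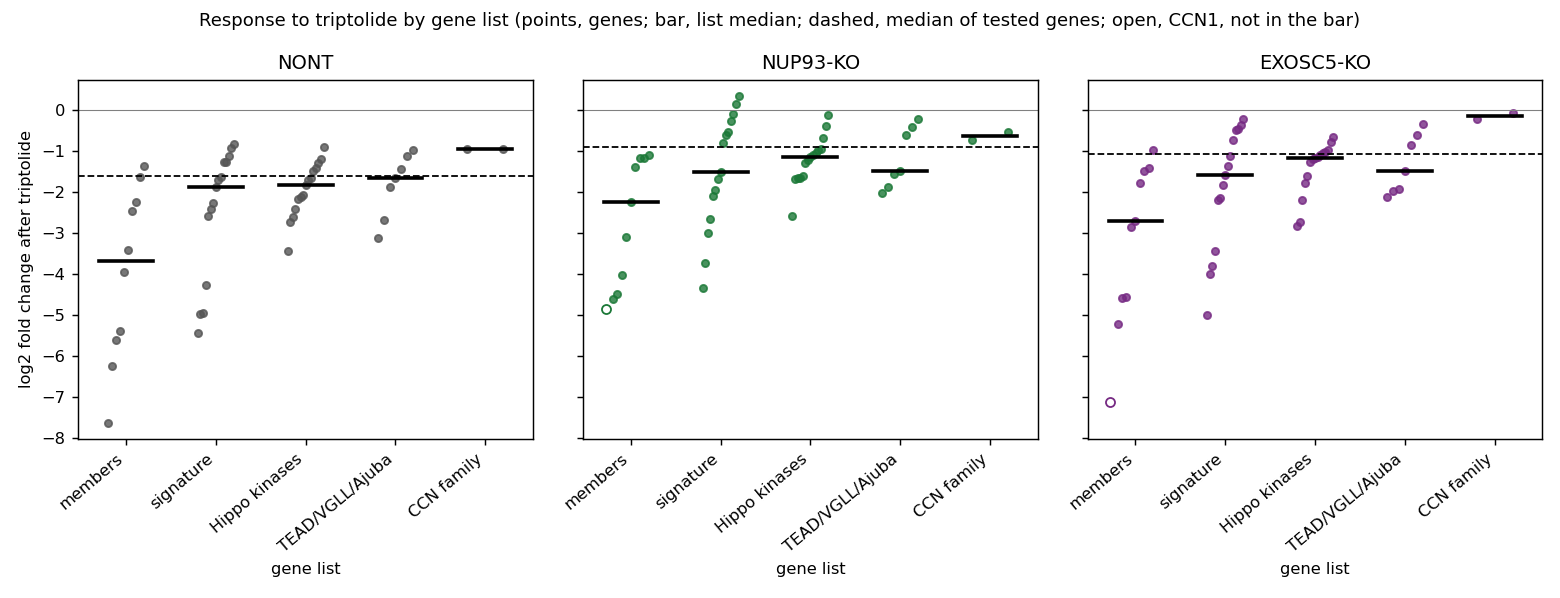
Log2 fold change after triptolide of each tested gene by list and genotype (points, genes; bars, list medians; dashed line, median of all tested genes; open point, CCN1, left out of the bar in the knockouts). In NONT the 10 genes have a median of −3.69, while the signature, Hippo kinase and family lists lie at −1.87, −1.83 and −1.65, and all genes at −1.62.

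No gene of these 4 lists passed in either knockout without drug (0 in limma in each). Under triptolide 8 of 15 signature genes were higher in NUP93-KO and 6 in EXOSC5-KO, 8 of 15 Hippo kinases and scaffolds in each, 2 and 4 of 7 family genes, and CCN3 in both, in backgrounds of 41.9% and 39.2% of all tested genes. GADD45A, a stress-induced growth arrest gene in the signature, was 645 and 934.6 in untreated and 25.3 and 22.5 in treated NONT, and 143.4 and 155.2 in treated NUP93-KO. Its log2 difference under triptolide was 1.61 ± 0.24 in EXOSC5-KO and 2.59 ± 0.24 in NUP93-KO, and it was the single signature gene whose response differed in NUP93-KO (2.31 ± 0.35, limma adjusted p = 0.0124). FRMD6, a scaffold that promotes Hippo signalling, had the largest difference from NONT under triptolide of its list in each knockout. It was 2903 and 3123 in treated EXOSC5-KO, 1491 and 1598 in treated NUP93-KO and 869.8 and 718 in treated NONT. These log2 differences were 1.93 ± 0.19 with the EXOSC5 guide and 0.96 ± 0.19 with the NUP93 guide. Without drug FRMD6 was already higher with the EXOSC5 guide (6196 and 5768) than with the nontargeting one (3008 and 4178). That log2 difference was 0.75, its difference in response with the EXOSC5 guide was 1.17, and neither was called.

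Across the 12 libraries the genes most like CCN1 were not members of the pathway. Pearson's r of log2 values, over 10380 genes with an untreated mean of at least 100, was highest for MYC, TGS1 and MRPS31 (0.997 each), followed by PPP3R1 and NFIL3 (0.996 each). The libraries fall into treated and untreated sets, so r mostly records the size of that step and is a description with no p. MYC was 869.8 and 1431 in untreated NONT, 2.39 and 1.74 in treated NONT, 5.18 and 5.29 in treated EXOSC5-KO and 27.2 and 33.6 in treated NUP93-KO. Because MYC was picked for its likeness to CCN1 over these same libraries, sharing the order of genotypes with CCN1 is no separate result. Among the 9 others LATS1 (0.992, rank 57), CCN2 (0.989, rank 126) and ANKRD1 (0.989, rank 128) were nearest and LATS2 (0.821, rank 7400) farthest.

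Per length, the 3 main targets were the most abundant in NONT. Per kilobase of the longest protein-coding transcript the mean untreated level was 2332 for CCN2, 2307 for CCN1 and 2091 for ANKRD1, each above at least 96.7% of tested genes. The 3 did not differ beyond the spread between libraries. AJUBA (555.4), AMOTL2 (414.2), TEAD1 (402.9) and YAP1 (307.3) followed, then LATS2 (177.9), WWTR1 (77.3) and LATS1 (70.1). With the median transcript length instead, AJUBA and AMOTL2 ranked highest.

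The 3′ UTRs were searched for AU-rich letters, which mark many unstable mRNAs. ATTTA occurred 4.41 times a kilobase in CCN1, 5.19 in ANKRD1, 4.75 in LATS1, 3.97 in AJUBA, 3.36 in WWTR1, 3.27 in LATS2, 2.76 in CCN2, 2.58 in YAP1, 2.26 in TEAD1 and 1.27 in AMOTL2, against a median of 1.76 over 12784 tested genes with an annotated 3′ UTR. The longer TTATTTATT lay in 9.93% of those genes and, among the 10, in ANKRD1 (2 matches, 180 and 204 bases after the stop codon) and in LATS2 (1). The ANKRD1 windows, at chr10:90912668-90912696 and chr10:90912644-90912672 on the minus strand of GRCh38, are shown because ANKRD1 had the most ATTTA per kilobase of the 10 genes. The letters searched are in capitals.
ANKRD1 window 1: agtgaaactcTTATTTATTtttatgtatt
ANKRD1 window 2: gtattcctgtTTATTTATTtactgccacg
The part of these letters in the losses was not tested.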

How the data were processed

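Poly(A) RNA of 12 U2OS libraries was sequenced in stranded, paired-end form. The authors pseudoaligned reads to Ensembl GRCh38 cDNA and ERCC sequences with kallisto 0.46.1 and summed transcripts to protein-coding genes with tximport. The authors then took size factors from DESeq2 on the ERCC spike-ins alone. The deposited values are this normalised signal, not counts. Of low values, 11.9% to 23.8% were whole multiples of 1 read (tolerance 0.01), so no count test was used. An error in cell number or spike-in volume moves all genes of a library together.

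Of the gene IDs 19584 matched GENCODE 44 and 2795 did not; symbols, positions and 3′ UTRs came from there. Log2(value + 1) of the 13811 genes with an untreated mean of at least 10 was fitted with limma 3.58.1 (R 4.3.3; 6 group means, trend) and adjusted by Benjamini-Hochberg over all tested genes, with a threshold of 0.05. Because of the pseudocount, fold changes of low genes are too small. Nothing in the labels says that replicates were separate cultures, so p-values measure only the spread between these samples. Same-numbered samples did not deviate together (r from −0.05 to 0.04 over 15 pairs of groups). Alternatives were other pseudocounts, filters and scales (same total, same sum of mitochondrially encoded mRNAs, median of ratios), no trend, a replicate block and leaving out each library. The members and lists were chosen with earlier results of these data known. Named were the 10 genes, the extremes of 4 lists in NONT with up to 4 called genes a list, of which examples are given, the 5 genes most like CCN1, and NUP93 and EXOSC5. The TTATTTATT search was added after the values were seen.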

Additional observations from a re-analysis of the deposited data

Results flagged for a closer look

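A difference in response to triptolide between NUP93-KO and NONT passed the test for 3 genes of the pathway lists: GADD45A at 2.31 ± 0.35 (SE), ANKRD1 at 1.77 ± 0.31 and CCN2 at 1.38 ± 0.29 on the log2 scale, where the median tested gene was at 0.74. The limma adjusted p was 0.0124, 0.0271 and 0.0446, and ranged over the alternatives from 0.00343 to 0.111, 0.00343 to 0.566 and 0.00343 to 0.671. With the same total per library the values were 1.56, 1.02 and 0.61 and GADD45A alone stayed past the threshold (adjusted p = 0.0207). GADD45A also passed by median of ratios (limma adjusted p = 0.0207). It did not pass with the same mitochondrial sum (adjusted p = 0.105) or without the limma trend (0.111).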

How the results depend on the processing

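The falls after triptolide kept their counts (10 in NONT and 9 in each knockout) in each fit that left out 1 library. Counts of the 9 genes higher in treated NUP93-KO moved from 5 to 3 with the same total and to 3 with the same mitochondrial sum, and those in treated EXOSC5-KO from 7 to 3 with the same total, to 4 calls by median of ratios (TEAD1 among them as lower) and to 1 call, TEAD1 lower, with the same mitochondrial sum. Untreated EXOSC5-KO gained 1 call on the last scale. Differences in response in NUP93-KO went from 2 to 0 without a filter, with the same total, with the same mitochondrial sum, by median of ratios and without the limma trend (8, 2, 3, 2 and 5 higher at an unadjusted p under 0.05) and to 1 with the replicate block, since CCN2 then had an adjusted p of 0.0555; the block moved no other count by over 1.5 times, and replicates share only a number. Leaving out 1 library gave 3 to 6 and 3 to 8 genes under triptolide, 0 to 8 and 0 to 6 differences in response in NUP93-KO and EXOSC5-KO, and 0 to 1 in untreated EXOSC5-KO.

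Signs changed for members near the median gene, whose shift the scales remove. By median of ratios LATS2 changed by 0.27 in NONT and 0.10 in EXOSC5-KO after triptolide. YAP1 under triptolide was −0.041 (same total) and −0.064 (median of ratios) in NUP93-KO, and −0.19 (mitochondrial) and −0.025 (median of ratios) in EXOSC5-KO. With the same total, the mitochondrial sum and median of ratios in turn, the difference in response was −0.23, −0.12 and −0.21 for YAP1 and −0.59, −0.48 and −0.57 for LATS2 in NUP93-KO, and −0.32, −0.23 and −0.35 for YAP1 and −0.15, −0.059 and −0.17 for LATS2 in EXOSC5-KO; TEAD1 there was −0.080 and −0.11 with the same total and by median of ratios. Without 1 library it ranged from −0.064 to 0.43 for LATS2 in NUP93-KO and −0.011 to 0.46 for YAP1 in EXOSC5-KO. Groups of 2 and an offset between the NONT replicates limit every comparison with NONT, and treated CCN1 in NONT rests on few reads.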
